A study of Danio rerio with 9 samples.

Results

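The genes described here build and supply the machinery that licenses and copies DNA. They are *mcm2* to *mcm7*, *cdc6*, *pcna*, *rrm1* and *rrm2*, and their rows were found by symbol in the deposited expression table. The 10 symbols matched 13 of its 33737 gene rows, because *mcm3*, *mcm5* and *rrm2* each stand on 2 rows. RNA was measured in whole zebrafish embryos of the TuAB strain at 72 h post-fertilization (hpf), in 3 groups of 3 libraries. Wild-type embryos carried no *cep290* lesion. *MZcep290-/-* embryos were maternal-zygotic mutants of a single allele, a 10-bp deletion in exon 16 of *cep290*, so that both the mother's supply and the embryo's own gene were mutant. The *cep290ex25* morphants had received a morpholino against exon 25, which is a knockdown rather than a heritable change, and the labels name no control injection. Every library came from a pool of 30 embryos. The comparisons ask how replication genes stand after long-term loss of *cep290* and after its acute knockdown.

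Before a cell can copy its DNA, the origin recognition complex, Cdc6 and Cdt1 load rings made of Mcm2, Mcm3, Mcm4, Mcm5, Mcm6 and Mcm7 onto origins. Loading takes place while cyclin-dependent kinase activity is low, and geminin binds Cdt1 and blocks loading again once S phase has begun. Cdc45 and the GINS complex then join the ring to form the CMG helicase that unwinds the template. PCNA is the sliding clamp that holds DNA polymerase on the template. Ribonucleotide reductase makes the deoxynucleotides, from a large subunit encoded by *rrm1* and a small subunit encoded by *rrm2*. In an embryo these transcripts are most abundant in dividing cells such as the progenitors of the retina and brain. In bulk RNA from whole embryos, fewer cells of a type and less RNA per cell cannot be told apart.

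The libraries differed in depth. Wild-type libraries held 5652757 to 7674248 reads on genes, mutant libraries 18662115 to 21299112 and morphant libraries 9050375 to 16150393. Low values are therefore least precise in wild type, where 3 reads on a gene of 2 kb equal 0.265 to 0.309 RPKM (reads per kilobase of gene, relative to the authors' normalized library sizes), against 0.0535 to 0.0615 RPKM in the mutant. The targeted gene, *cep290*, was at 1.62 to 2.60 RPKM in wild type, 1.14 to 1.32 RPKM in the mutant and 3.36 to 6.15 RPKM in the morphant. Neither a short deletion nor a splice-site morpholino need change the number of reads on a gene, so these levels do not check the labels. A gene was called when limma's moderated test gave a Benjamini-Hochberg adjusted p under 0.05 over the 21982 genes tested and the fold change was above 2. Fold changes are on the log2(RPKM + 0.1) scale, with the standard error (SE) of the fit. All 3 comparisons use the same libraries, and both comparisons with wild type share its 3 libraries. With 3 libraries against 3, the smallest two-sided exact permutation p is 0.10.

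*mcm2* could not be followed, because its row was listed at 0 in all 9 libraries. The other 12 rows passed the filter on low values and were tested. Where a symbol has 2 rows, copy 1 is the row with the higher mean level and copy 2 the other. The counting options are not stated, so reads from closely related copies may be divided between such rows, and values of single copies are less certain than their sum. A names table gives the symbol *hsp70.1* to the second *mcm5* row, so the identity of that row is also uncertain.

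**Figure D1:**
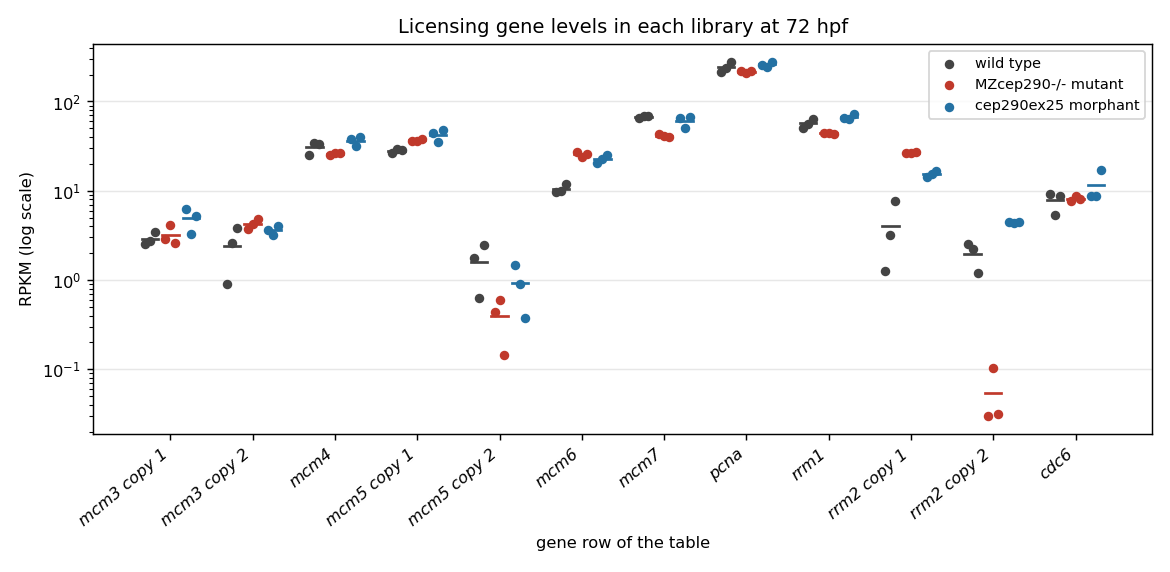
Expression of the 12 licensing gene rows that were tested, in RPKM on a log axis, with 1 point per library of wild type, mutant and morphant. The *mcm6* points of wild type (9.71 to 12.0) lie below all mutant and morphant points, and the *rrm2* copy 2 points of the mutant (0.0299 to 0.103) lie below all others.

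Among the subunits of the MCM ring, *mcm6* rose in both groups while *mcm7* was lower in the mutant. *mcm6* was at 9.71, 9.94 and 12.0 RPKM in wild type, 27.2, 24.0 and 25.5 RPKM in the mutant and 20.4, 22.9 and 24.9 RPKM in the morphant. All 6 libraries with reduced *cep290* function were above all 3 wild-type libraries, and the mutant and morphant ranges overlapped. *mcm6* was 1.27 higher on the log2 scale in the mutant (SE 0.121, limma adjusted p = 8.8e-05), which is 2.42-fold. In the morphant it was 1.10 higher (SE 0.121, limma adjusted p = 3.1e-04), or 2.15-fold, and its difference between mutant and morphant was 0.17 (SE 0.121, limma adjusted p = 0.397). The morphant's rise came to 0.74 after cyclic loess scaling, which puts it under 2-fold at an adjusted p of 0.0011.

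*mcm7*, the most abundant subunit row per length, moved the other way in the mutant. It was at 66.2, 68.2 and 68.4 RPKM in wild type, 43.4, 41.1 and 40.2 RPKM in the mutant and 66.2, 50.6 and 66.6 RPKM in the morphant. The mutant libraries were below every other library, whereas the morphant overlapped wild type. The log2 difference between mutant and wild type was -0.70 (SE 0.110, limma adjusted p = 0.0013), or 1.62-fold, short of the fold needed for a call. Scaling by the read totals of the libraries gave 0.032 for *mcm7*, but put the median of all genes at 0.68, so that *mcm7* stood at -0.65 relative to it. Against the morphant the mutant was at -0.54 (SE 0.110, limma adjusted p = 0.0118).

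*mcm5* copy 1 was at 26.5, 29.4 and 28.4 RPKM in wild type, 36.4, 35.8 and 37.8 RPKM in the mutant and 44.7, 35.4 and 47.8 RPKM in the morphant. Every mutant and morphant library was above every wild-type library, by less than 2-fold on average. The log2 difference was 0.38 in the mutant (SE 0.115, limma adjusted p = 0.0279) and 0.59 in the morphant (SE 0.115, limma adjusted p = 0.0043). With library read totals the mutant's difference was 1.11, past 2-fold, or 0.43 relative to the median of all genes.

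The other MCM rows passed no call. *mcm4* was at 25.3, 34.4 and 33.8 RPKM in wild type, 24.9, 26.7 and 26.6 RPKM in the mutant and 37.8, 31.9 and 39.6 RPKM in the morphant. The mutant and wild-type ranges of *mcm4* overlapped, and the mutant was below the morphant by a log2 difference of -0.48 (SE 0.135, limma adjusted p = 0.0464). Both *mcm3* rows were low, at 0.910 to 6.26 RPKM over the 9 libraries. *mcm3* copy 2 was at 0.910, 2.58 and 3.79 RPKM in wild type and at 3.76 to 4.86 RPKM in the mutant. The first wild-type library, with 13 reads on this row, lay apart from the others. The differences of *mcm3* copy 2 from wild type, 0.99 in the mutant (limma adjusted p = 0.103) and 0.76 in the morphant (limma adjusted p = 0.201), passed the call without wild-type replicate 3, at 1.40 and 1.17, and in the mutant also with read totals of the libraries, at 1.70. *mcm5* copy 2, at 0.146 to 2.45 RPKM, rested on 4 to 21 reads a library. Its difference in the mutant was -1.74 (limma adjusted p = 0.0700), and -2.26 with a call without wild-type replicate 2.

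The balance among the ring subunits can be read within a library from their shares and ratios, where the normalization cancels. Their summed level is compared between libraries and still carries the normalization. The summed level of the *mcm2* to *mcm7* rows was 133, 148 and 152 RPKM in wild type, 139, 136 and 138 RPKM in the mutant and 180, 148 and 189 RPKM in the morphant. These sums overlapped between wild type and both other groups at the deposited scaling. The normalized library sizes were 0.737 to 0.859 times the read totals in wild type, 1.31 to 1.32 times in the mutant and 0.894 to 1.07 times in the morphant. Scaled by read totals, the mutant sums would therefore stand higher relative to wild type. The *mcm2* row, at 0 throughout, adds nothing to the sum, so shares of it are shares of the measured rows, not of the whole ring. The sum includes *mcm5* copy 2, whose identity is uncertain, at 0.106% to 1.61%. Of the sum, *mcm7* made up 44.9% to 49.8% in wild type, against 29.2% to 31.3% in the mutant, and 34.1% to 36.7% of the morphant sum. *mcm6* made up 6.72% to 7.91%, 17.6% to 19.6% and 11.3% to 15.5%, in the same order. The 3 groups held separate ranges for both subunits, with the morphant between the others.

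The ratio of *mcm6* to *mcm7* was 0.156 ± 0.0172 in wild type, 0.615 ± 0.0274 in the mutant and 0.379 ± 0.0723 in the morphant (SD, n = 3 each, RPKM ratio, exact permutation p = 0.10 for each pair of groups). That of *mcm5* copy 1 to *mcm7* was 0.416 ± 0.0155, 0.883 ± 0.0529 and 0.698 ± 0.0212 in the same order (SD, n = 3 each, exact permutation p = 0.10 for each pair). For both ratios the 3 groups did not overlap and wild type was lowest. The ratio of *mcm4* to *mcm7* was 0.460 ± 0.0676 in wild type, 0.628 ± 0.0481 in the mutant and 0.599 ± 0.0298 in the morphant (SD, n = 3 each). Here the mutant and morphant overlapped (exact permutation p = 0.40). In all, 7 ratios were tested in 3 comparisons, 21 tests, and a raw p of 0.10 became 0.11 after Benjamini-Hochberg adjustment. No ratio could pass 0.05 in this design, and the pairs were chosen after the levels were known.

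**Figure D2:**
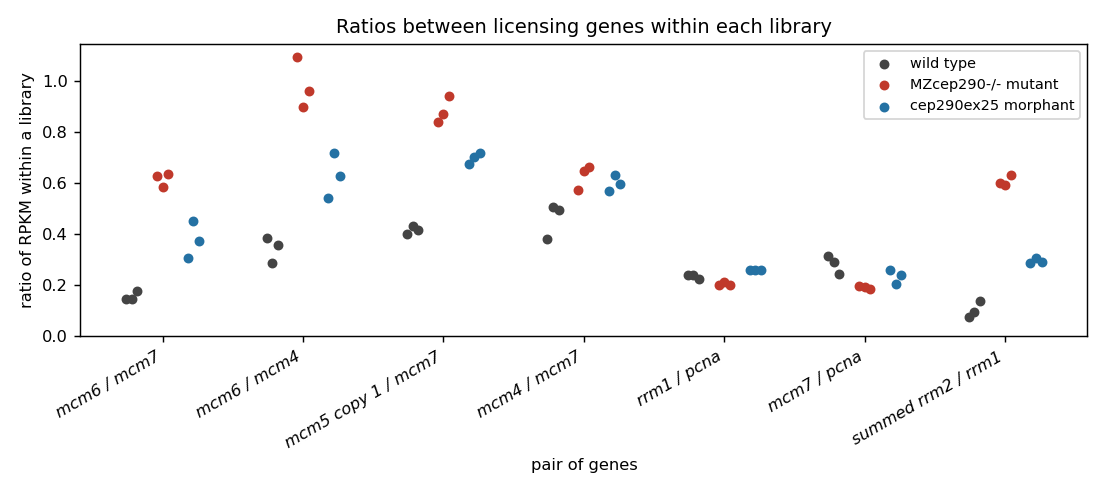
Ratios of RPKM between licensing genes within each library, 1 point per library, for wild type, mutant and morphant. The *mcm6* to *mcm7* ratio lies between 0.146 and 0.176 in wild type, between 0.309 and 0.453 in the morphant and between 0.583 and 0.634 in the mutant.

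The ring loader and the clamp showed no call in any comparison. *cdc6*, whose product helps to open and load the MCM ring, was at 9.20, 5.40 and 8.82 RPKM in wild type, 7.74, 8.66 and 8.04 RPKM in the mutant and 8.80, 8.71 and 17.0 RPKM in the morphant. The third morphant library stood above all others. The mutant and the morphant each overlapped wild type, and the mutant lay below the morphant by a narrow margin. The log2 difference of *cdc6* was 0.10 in the mutant (SE 0.283, limma adjusted p = 0.820), 0.52 in the morphant (SE 0.283, limma adjusted p = 0.184) and -0.42 between mutant and morphant (limma adjusted p = 0.370).

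*pcna*, the clamp, was the most abundant row of the set per length, at 211, 235 and 279 RPKM in wild type, 221, 211 and 218 RPKM in the mutant and 254, 246 and 279 RPKM in the morphant. The mutant libraries lay in, and in 1 case just under, the lower part of the wild-type range. Its log2 difference was -0.15 in the mutant (SE 0.107, limma adjusted p = 0.309) and 0.11 in the morphant (SE 0.107, limma adjusted p = 0.450). The sign in the mutant depended on the scaling, at 0.58 with library read totals (-0.10 relative to the median of all genes) and 0.53 with cyclic loess.

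The subunits of ribonucleotide reductase separated. *rrm1*, the large subunit, was at 50.6, 56.3 and 63.2 RPKM in wild type, 44.7, 44.6 and 43.6 RPKM in the mutant and 66.0, 64.4 and 72.1 RPKM in the morphant. The mutant was below wild type and the morphant above it, with no overlap among the 3 groups. The log2 difference was -0.35 in the mutant (SE 0.0944, limma adjusted p = 0.0181), 0.26 in the morphant (SE 0.0944, limma adjusted p = 0.0624) and -0.61 between mutant and morphant (SE 0.0944, limma adjusted p = 0.0037). With library read totals *rrm1* stood at 0.38 in the mutant, or -0.30 relative to the median of all genes. Within libraries, the ratio of *rrm1* to *pcna* was 0.235 ± 0.00751 in wild type, 0.205 ± 0.00611 in the mutant and 0.260 ± 0.00145 in the morphant (SD, n = 3 each, exact permutation p = 0.10 for each pair).

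*rrm2*, the small subunit, rose in both groups when its rows were summed. The sum was 3.77, 5.46 and 8.81 RPKM in wild type, 26.8, 26.4 and 27.4 RPKM in the mutant and 18.9, 19.7 and 21.1 RPKM in the morphant. Every mutant library was above every morphant library, and those above every wild-type library. The summed *rrm2* rose by 2.22 on the log2 scale in the mutant (SE 0.247, limma adjusted p = 2.0e-04), which is 4.67-fold, and by 1.79 in the morphant (SE 0.247, limma adjusted p = 8.9e-04), which is 3.46-fold. The difference between mutant and morphant was 0.43 (SE 0.247, limma adjusted p = 0.290). The ratio of summed *rrm2* to *rrm1* was 0.104 ± 0.0329 in wild type, 0.607 ± 0.0204 in the mutant and 0.295 ± 0.0104 in the morphant (SD, n = 3 each, exact permutation p = 0.10 for each pair).

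The separate *rrm2* rows went different ways. Copy 1 was at 1.27, 3.23 and 7.62 RPKM in wild type, on 9, 23 and 63 reads, at 26.8, 26.3 and 27.4 RPKM in the mutant and at 14.4, 15.3 and 16.6 RPKM in the morphant. The wild-type libraries were spread widely and stayed below all others. *rrm2* copy 1 rose by 3.04 in the mutant (SE 0.486, limma adjusted p = 0.0014) and by 2.25 in the morphant (SE 0.486, limma adjusted p = 0.0069). Wild type set the size of these rises: without its replicate 1 they were 2.41 and 1.62, and without its replicate 3 they were 3.66 and 2.87.

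*rrm2* copy 2 was at 2.50, 2.24 and 1.19 RPKM in wild type and at 4.44, 4.41 and 4.45 RPKM in the morphant. In the mutant it was at 0.0299, 0.103 and 0.0318 RPKM, on 2, 6 and 2 reads. The row was close to absent in the mutant, the group sequenced most deeply, and present in every library of the other groups. Over the pooled reads the wild-type level was 36.4 times the mutant level (71 against 10 reads, exact 95% interval 18.7 to 79.1, counting error only), and the morphant level was 83.2 times the mutant level (382 against 10 reads, 44.8 to 175). The fitted log2 differences of *rrm2* copy 2 were -3.71 from wild type (SE 0.400, limma adjusted p = 1.7e-04) and -4.90 from the morphant (SE 0.400, limma adjusted p = 2.4e-04), and they depend on the pseudocount. The morphant was 1.19 above wild type (SE 0.400, limma adjusted p = 0.0446). This last call was lost in 15 of 19 alternatives, among them those without wild-type replicate 2 or 3 and those without any 1 mutant or any 1 morphant library. Over all 19 alternatives its limma adjusted p ran from 0.0023 to 0.175.

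Copy 1 supplied 23.7% of the *rrm2* reads of wild-type replicate 1 (9 of 38 reads, exact 95% interval 11.4% to 40.2%), 46.9% in replicate 2 (23 of 49, 32.5% to 61.7%) and 79.7% in replicate 3 (63 of 79, 69.2% to 88.0%). In the mutant it supplied 99.4% to 99.8%, and in morphants 66.6% to 69.6%. The wild-type replicates thus differed from each other by more than counting error, while the mutant and morphant libraries stayed within narrow ranges. Copy 1 of *mcm3* supplied 48.8% to 74.0% of wild-type reads, 35.4% to 50.2% of mutant reads and 51.8% to 64.1% of morphant reads. For *mcm3* the mutant lay below the morphant, and wild type overlapped both. Libraries of 1 group again differed by more than counting error, with *mcm3* copy 1 at 74.0% in wild-type replicate 1 (exact 95% interval 59.7% to 85.4%) and 48.8% in replicate 3 (39.7% to 58.0%).

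**Figure D3:**
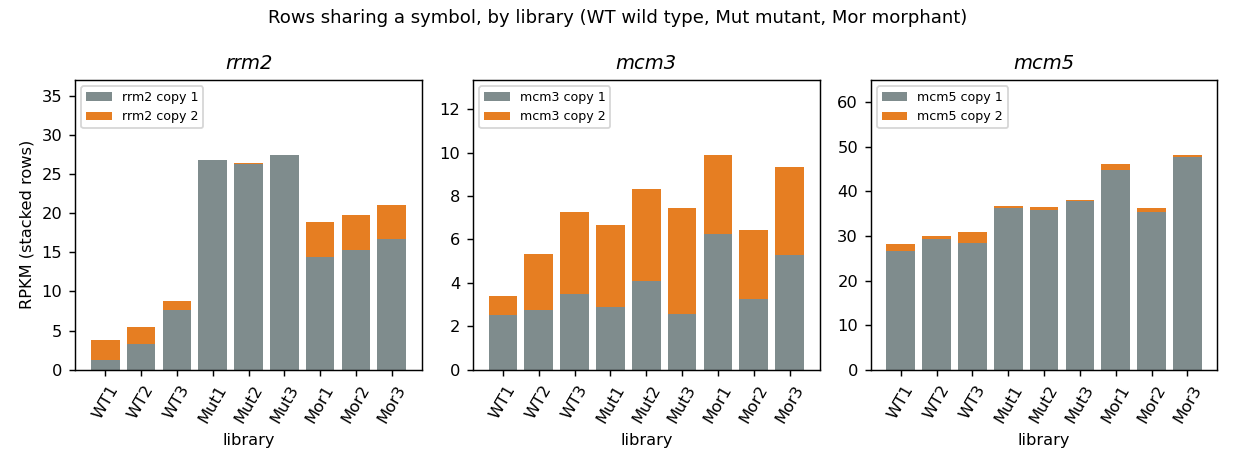
Stacked bars of RPKM for the paired rows of *rrm2*, *mcm3* and *mcm5* in each of the 9 libraries, with copy 1 and copy 2 in different shades and the axis starting at 0. Wild-type *rrm2* bars reach 3.77 to 8.81, mutant bars 26.4 to 27.4, with almost no copy 2 visible, and morphant bars 18.9 to 21.1.

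Counted by row, 2 of the 12 licensing rows rose in the mutant (*mcm6* and *rrm2* copy 1) and 1 fell (*rrm2* copy 2), beside calls for 10.4% (higher) and 12.1% (lower) of all genes tested. In the morphant 3 rose (*mcm6* and both *rrm2* rows), against 7.45% of all genes, and limma called 0 lower, against 14.9%, with 0 lower also at an unadjusted p under 0.05. Between mutant and morphant limma called 0 higher, with 0 also at an unadjusted p under 0.05, and 1 lower (*rrm2* copy 2), against 3.48% and 2.40% of all genes. At an adjusted p under 0.05 with no minimum fold, 6 rows passed in the mutant, against 36.0% of all genes, 4 in the morphant, against 35.2%, and 4 between mutant and morphant, against 13.6%. The median log2 difference over the 12 rows was -0.03 in the mutant, 0.55 in the morphant and -0.45 between them, beside -0.02, -0.05 and 0.14 over all genes. Over the 14288 genes that averaged 2 RPKM or more, the medians were 0.17, 0.21 and -0.02, so the distance from the background depends on the genes compared. With read totals of the libraries the medians of the 12 rows were 0.70, 0.84 and -0.01, beside 0.68, 0.22 and 0.56 over all genes. With the paired rows summed, *mcm6* and *rrm2* were called higher in the mutant and in the morphant, 2 of 9 symbols each. Between mutant and morphant the summed rows gave 0 calls by limma, with 0 higher and 4 lower at an unadjusted p under 0.05. With rows separate, 6263 of the 21982 genes were at an unadjusted p under 0.05 there, in either direction. Against wild type these totals were 10057 in the mutant and 10107 in the morphant.

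**Figure D4:**
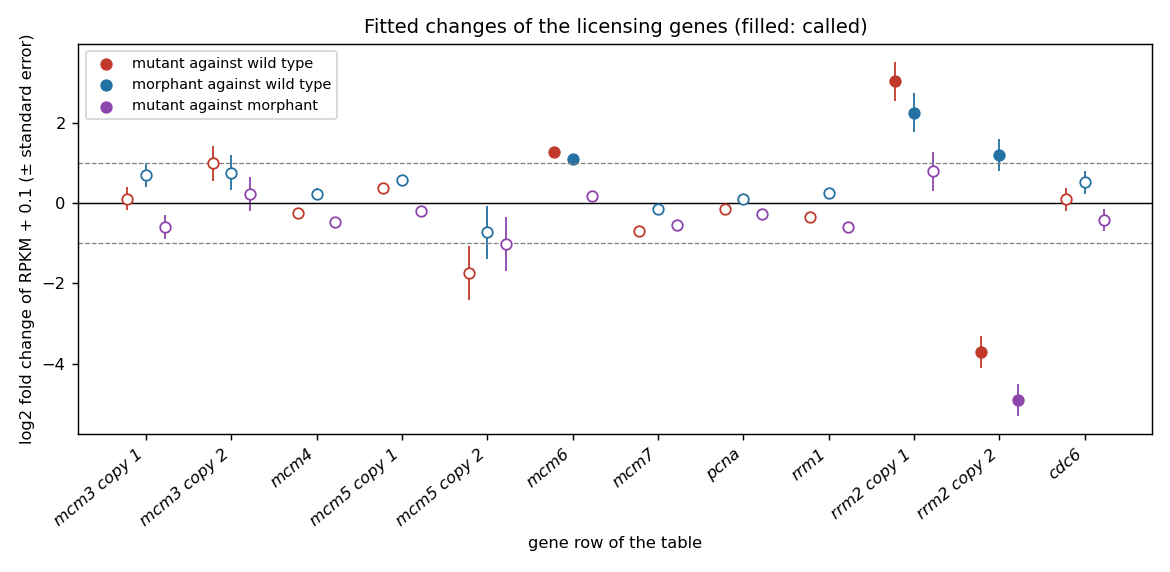
Log2 fold change of each licensing row in the 3 comparisons, on the log2(RPKM + 0.1) scale, with bars of 1 SE from the limma fit, filled points for calls and dashed lines at a 2-fold change. *rrm2* copy 2 lies at -3.71 for mutant against wild type and at 1.19 for morphant against wild type, while *pcna* and *cdc6* stay inside the dashed lines.

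The steps around the MCM ring were followed with lists of other replication genes, whose counts stand beside calls for 10.4% of all genes higher and 12.1% lower in the mutant, and 7.45% higher and 14.9% lower in the morphant. In a list of origin recognition and licensing factors, 1 of 14 rose and 2 fell in the mutant, and 1 rose and 3 fell in the morphant. The gene that rose was *gmnn*, which encodes geminin, by 1.41 in the mutant and 1.21 in the morphant (limma adjusted p = 0.0243 and 0.0452). The morphant call of *gmnn* was lost with median-of-ratios scaling, under which 0 of the 14 genes were called higher there. Its level was 0.647 to 2.48 RPKM in wild type and 3.34 to 3.61 RPKM in the mutant. The genes that fell in both were the MCM relatives *mcm3l* and *mcm6l*, which were low throughout, at group means of 1.81 and 1.58 RPKM in wild type and 0.206 to 0.314 RPKM in the others. After cyclic loess 0 of the 14 genes passed as lower in either group. Among 11 genes of origin firing and the CMG helicase limma called 0 in either group. At an unadjusted p under 0.05, the mutant had 0 higher and 2 lower of them, the morphant 1 higher and 1 lower. Of all 21982 genes, 10057 in the mutant and 10107 in the morphant were under that p, in either direction. These totals also stand beside the unadjusted counts of the lists that follow.

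At the replication fork, 4 of 36 genes rose and 1 fell in the mutant, while 2 rose and 0 fell in the morphant, where 2 were lower at an unadjusted p under 0.05. For 36 genes these counts are near the shares of all genes called higher, 10.4% and 7.45%. *fen1*, the nuclease that trims Okazaki fragments, rose by 1.32 in the mutant and 1.22 in the morphant (limma adjusted p = 6.9e-05 and 1.7e-04). *lig1*, which joins those fragments, rose by 1.77 in the mutant (limma adjusted p = 3.7e-05) and was 1.11 above the morphant (limma adjusted p = 0.0015). The topoisomerase gene *top1l* rose by 1.55 and 1.07 in the mutant and morphant (limma adjusted p = 2.3e-05 and 2.0e-04). The row that fell in the mutant was 1 of *top1*, by -1.41 (limma adjusted p = 0.0464). It was low, at group means of 2.99 RPKM in wild type and 0.963 RPKM in the mutant. With no minimum fold, 7 fork genes were higher and 7 lower in the mutant at an adjusted p under 0.05, beside 36.0% of all genes. In the morphant 6 were higher and 1 lower, beside 35.2%. After cyclic loess 3 fork genes passed as higher in the mutant and 0 in the morphant, and with read totals of the libraries 13 and 8. Read totals also put the median of all genes at 0.68 in the mutant and 0.22 in the morphant. Relative to it, the median of the fork list was 0.14 and 0.33. Shares of all genes called are given, here and elsewhere, for the main scaling only. A count of calls under another scaling therefore has no share beside it and cannot be set against the background.

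Of 14 other genes of nucleotide supply, 4 rose in the mutant and 5 in the morphant, with 0 falls called by limma in either, where 3 and 0 were lower at an unadjusted p under 0.05. Over all genes 10.4% and 7.45% were called higher. The rises in both groups include *dguok* and *tk1*, which were near the floor in wild type. Their group means were 0 and 0.307 RPKM in wild type, 0.255 and 1.25 RPKM in the mutant and 0.749 and 1.28 RPKM in the morphant. In wild type 3 reads on a gene of 2 kb equal 0.265 to 0.309 RPKM, so these calls are uncertain. *rrm2b*, an alternative small subunit of ribonucleotide reductase that is a p53 target in mammals, rose by 1.81 and 1.71 in the mutant and morphant (limma adjusted p = 7.9e-04 and 0.0014). Its libraries stood at 2.72 to 6.44 RPKM in wild type, 14.6 to 16.7 RPKM in the mutant and 14.0 to 15.3 RPKM in the morphant. *dtymk*, the thymidylate kinase gene, rose by 1.38 and 1.19 (limma adjusted p = 2.7e-04 and 8.7e-04). *dck*, which encodes a deoxynucleoside salvage kinase, rose by 2.33 in the morphant (limma adjusted p = 0.0115), and *umps*, of pyrimidine synthesis, was lower in the mutant than in the morphant by a log2 difference of -1.17 (limma adjusted p = 0.0016).

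Around the start of S phase, 3 of 30 regulators of the G1/S transition rose in the mutant and 4 in the morphant, where 1 fell. The count in the mutant is near the 10.4% of all genes called higher, and that in the morphant stands beside 7.45%. With read totals of the libraries 13 and 8 of these regulators were called higher, with the median of all genes at 0.68 and 0.22. Relative to it, the median of these regulators was 0.29 and 0.34. The cyclin genes *ccnd1* and *ccne2* rose in both, *ccnd1* by 1.65 and 1.66 and *ccne2* by 1.92 and 1.34 (limma adjusted p = 1.2e-05, 1.4e-05, 9.7e-05 and 9.1e-04). The cyclin-dependent kinase inhibitor gene *cdkn1a* rose by 2.05 in the morphant (limma adjusted p = 0.0062). It is also a member of a list of p53 response genes, of which 4 of 14 rose and 1 fell in the mutant and 9 rose and 1 fell in the morphant. That list summed to 143 to 149 RPKM in wild type, 340 to 350 RPKM in mutants and 957 to 1078 RPKM in morphants. A large part of each sum was *ccng1* alone, at group means of 74.5, 231 and 828 RPKM in the same order. After cyclic loess 2 of the 14 p53 response genes passed as higher in the mutant and 6 in the morphant, with no share of all genes under that scaling beside them. Relative to the median of all genes, the list's median after cyclic loess was 0.58 and 1.15. The part of these p53 response genes in the levels of *rrm2b*, *cdkn1a* and the licensing genes was not tested. The median log2 difference of the G1/S list was 0.26 in the mutant and 0.28 in the morphant.

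**Figure D5:**
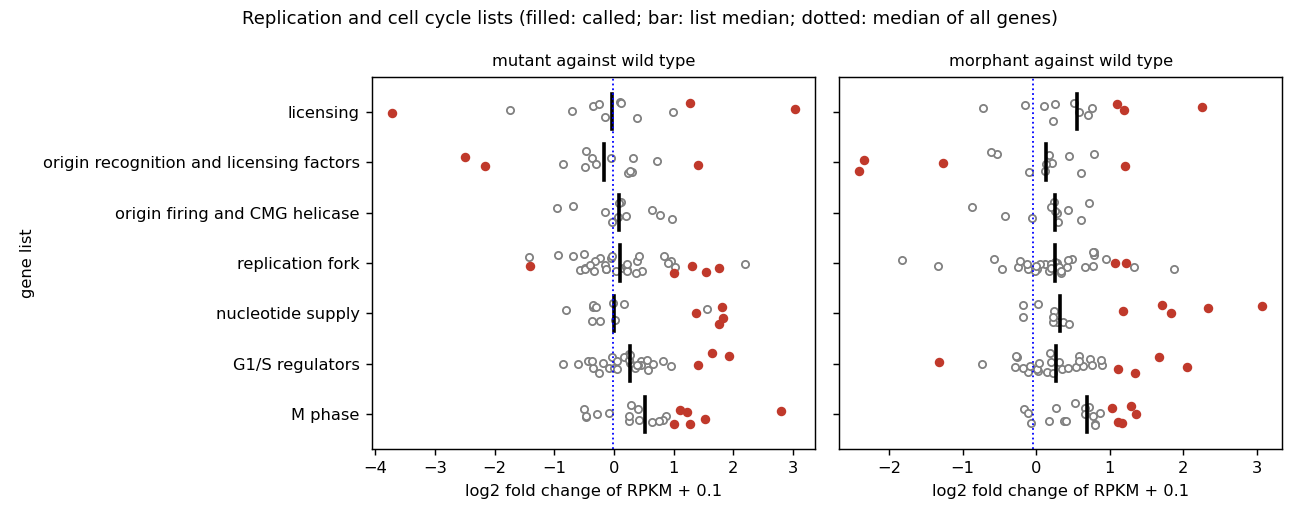
Log2 fold changes against wild type of the tested genes of each replication and cell cycle list, 1 point per gene, in the mutant and in the morphant. The medians of the licensing rows are -0.03 in the mutant and 0.55 in the morphant, and those of the M phase list are 0.52 and 0.69.

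Markers of dividing cells and of cell types also differed between the groups. Of 20 M phase genes, 6 rose in the mutant and 5 in the morphant, beside 10.4% and 7.45% of all genes. Limma called 0 of them lower in either, beside 12.1% and 14.9% of all genes. With no minimum fold, 2 and 0 were lower at an adjusted p under 0.05. *mki67*, a marker of proliferating cells, was up by 1.52 and 1.36 (limma adjusted p = 4.3e-05 and 1.2e-04). *cenpf* rose by 2.80 in the mutant and stood 2.02 above the morphant (limma adjusted p = 1.6e-04 and 0.0029). Its group means were 1.91, 13.0 and 3.15 RPKM in wild type, mutant and morphant. The list's sum was 290 to 328 RPKM in wild type, 426 to 442 RPKM in the mutant and 459 to 472 RPKM in the morphant. The summed markers of neural and retinal progenitors were at 38.6 to 62.2, 79.3 to 91.2 and 66.3 to 69.6 RPKM in the same order. Of these 8 rows, 2 were called higher in the mutant. In the morphant 1 was higher and 1 lower, beside 14.9% of all genes lower there. The lower row was *rx1*, by a log2 difference of -1.93 (limma adjusted p = 9.1e-04). It went against the direction of the sum, at group means of 7.13, 3.75 and 1.80 RPKM in wild type, mutant and morphant. All 5 neuronal markers rose in the mutant and 1 in the morphant, with sums of 119 to 134, 404 to 425 and 181 to 231 RPKM. The marker called in the morphant was *stmn1b*, at group means of 35.4 RPKM in wild type and 95.7 RPKM in the morphant. Against the direction of the sum, 1 of the 5, *elavl4*, was lower in the morphant, at 13.9 and 11.4 RPKM in the same order. After cyclic loess 4 M phase genes passed as higher in the mutant and 1 in the morphant, and with read totals of the libraries 13 and 10. These counts have no share of all genes under the same scaling beside them. Relative to the median of all genes, the M phase median after cyclic loess was 0.35 and 0.30. Read totals put the median of all genes at 0.68 and 0.22, and the M phase median at 0.57 and 0.76 relative to it.

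Markers of some differentiated tissues had lower sums, beside 12.1% of all genes called lower in the mutant and 14.9% in the morphant. In the morphant 10107 of 21982 genes were at an unadjusted p under 0.05, in either direction. The 4 muscle genes summed to 16444 to 22042 RPKM in wild type, 7192 to 7639 RPKM in the mutant and 11329 to 15350 RPKM in the morphant. In the mutant 2 were called lower, and the log2 difference of 1 of the 4 was above 0. In the morphant limma called 0, with 2 lower and 1 higher at an unadjusted p under 0.05. Photoreceptor rows summed to 266 to 321, 37.3 to 38.7 and 23.0 to 30.6 RPKM, with 3 of 4 tested rows called lower in each. A further *rho* row was at 0 in all libraries. The remaining tested row, *crx*, was not called against wild type, at group means of 15.2, 18.3 and 8.38 RPKM in wild type, mutant and morphant. In the mutant *crx* was 1.12 above the morphant (limma adjusted p = 0.0229). With read totals of the libraries, which put the median of all genes at 0.68, 1 photoreceptor row was called higher in the mutant. The 3 liver genes summed to 7107 to 9344, 3730 to 3806 and 4250 to 5337 RPKM, with 2 and 1 called lower. Most of each liver sum was *apoa1b* alone, at group means of 7801, 3224 and 4460 RPKM in wild type, mutant and morphant. The log2 difference of 1 of the 3 liver genes was above 0 in the mutant. For muscle and liver the direction in the mutant turned with cyclic loess, from medians of -1.21 and -1.27 to 0.59 and 0.56, with 1 muscle gene called higher and 0 lower, and 1 liver gene called higher and 1 lower. The muscle median also turned in the morphant, from -0.42 to 0.44, whereas the photoreceptor medians under it were -3.96 in the mutant and -4.24 in the morphant. The part of these cell type markers in the levels of *mcm6*, *mcm7*, *rrm1* and *rrm2* was not tested.

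The mean profile of the 7 tested MCM rows over the 9 libraries was compared with those of 14277 other genes that averaged 2 RPKM or more. Each row had equal weight, so the low rows of *mcm3* and *mcm5* copy 2 counted as much as the others. *mcm6* and *mcm7*, which moved in opposite directions in the mutant, are both in it. A gene near this mean need not resemble any single subunit. The 5 nearest by root mean square distance of mean-centred log2 values were *tbl1xr1a* (0.0716), *mesdc2* (0.0862), *psma2* (0.0961), *si:dkeyp-110e4.6* (0.0974) and *phb*, the farthest of them. *psma2*, which encodes a subunit of the proteasome, was at 58.5 to 83.9 RPKM in wild type, 70.1 to 73.4 RPKM in the mutant and 88.5 to 95.1 RPKM in the morphant. The closeness is a description over 9 libraries that share depth and normalization.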

How the data were processed

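PolyA RNA from pools of 30 embryos was made into directional libraries and sequenced on the HiSeq platform. Per the submitters' processing notes, reads were checked with FastQC, aligned to Zv9 with STAR, counted with HTSeq and tested with edgeR, with versions, annotation and counting options not given in the sources used here. The authors deposited RPKM values for 33737 genes in 9 libraries, relative to normalized library sizes, and the gene lengths. Multiplied by length, 100% of values were whole reads at a tolerance of 0.01, which gave the reads quoted. Intervals and floors cover counting error only.

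Groups and replicate numbers came from the sample titles. The short label and the title of 1 wild-type library disagree (2 and 3), and the title was followed. The paper calls the replicates biological and the wild-type embryos of its RNA sequencing siblings, whereas the sample titles name them only as wild-type TuAB. It also describes, for its experiments in general, the use of clutch mates as controls where this could be done. Which pools share a clutch is not given, so p-values measure the spread between these libraries.

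Rows that reached 0.5 RPKM in 3 or more libraries were transformed to log2(RPKM + 0.1), and limma 3.58.1 in R 4.3.3 fitted a mean for each of the 3 groups (moderated test, variance trend). Single values were also tested with two-sided exact permutation tests. The fit was tested on simulated data. Figures were drawn with matplotlib 3.10.9 in Python 3.11.15.

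The members and all gene lists were chosen with earlier results of these data known. Named are all members, and from each other list up to 3 called genes with the largest rise and up to 3 with the largest fall per comparison, if they averaged 2 RPKM or more, plus the 5 genes nearest the mean MCM profile. *mcm3l*, *mcm6l*, *top1*, *dguok* and *tk1* were named after their values were seen. Alternatives were 2 other pseudocounts, other filters and scalings, group weights, a replicate block, each library left out, no fold minimum and, added after seeing the data, paired rows summed.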

Additional observations from a re-analysis of the deposited data

How the results depend on the processing

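Over the 12 tested rows and 3 comparisons, 36 log2 differences were recomputed under 19 alternatives each (18 for *mcm5* copy 2, whose mean is under 2 RPKM). Of 681 values, 643 kept their direction and their side of the call, 16 lost the call, 5 gained it and 17 changed sign. Calls held under all 19 for *mcm6* and both *rrm2* rows (mutant over wild type), *rrm2* copy 1 (morphant over wild type) and *rrm2* copy 2 (mutant over morphant). Scaling by library read totals moved the median of all genes to 0.68, 0.22 and 0.56 for mutant over wild type, morphant over wild type and mutant over morphant. With it, 5 licensing rows were called in the mutant, and the sign changed for *mcm4* (0.49), *mcm7* (0.032), *pcna* (0.58) and *rrm1* (0.38) in the mutant, *mcm7* (0.13) in the morphant, and *mcm5* copy 1 (0.23), *pcna* (0.18) and *cdc6* (0.017) between mutant and morphant. With cyclic loess the sign changed for *mcm3* copy 1 (-0.15), *pcna* (0.53) and *cdc6* (-0.20) in the mutant, *mcm4* (-0.058) and *mcm5* copy 2 (0.94) in the morphant, and *mcm5* copy 1 (0.057) and *pcna* (0.24) between mutant and morphant. Shares of all genes called are given for the main scaling only, so the count of 5 rows has none beside it. The cause of these sign changes was not tested. Without a fold minimum 6 rows passed in the mutant and 4 between mutant and morphant, since the rule then keeps smaller changes. With paired rows summed, limma called 0 between mutant and morphant, with 4 at an unadjusted p under 0.05. With rows separate, 6263 of 21982 genes were under that p there. Leaving out each library in turn gave 3 to 4 calls in the mutant, 2 to 3 in the morphant and 1 to 1 between them. In those refits the mutant's *mcm3* copy 1 difference ran from -0.075 (without mutant replicate 2) to 0.25, and its *cdc6* difference reached -0.14 without wild-type replicate 2. Over 9 pairs of libraries with the same number, deviations from the group means correlated at -0.0409 to 0.00598, with 0 above 0.1. These values give no sign of pairing by number, but they cannot show whether pools share a clutch. With the replicate block, 3, 2 and 1 rows were called, against 3, 3 and 1 without it, and the row lost was *rrm2* copy 2 in the morphant. Depth limits the low rows most in wild type, where *rrm2* copy 1 rested on 9 to 63 reads and *mcm5* copy 2 on 4 to 18.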
